A study of Triticum aestivum with 4 samples.

Results

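TaALMT1 and TaTPC1 encode a malate transporter and a calcium channel of wheat (Triticum aestivum), 2 of the 771 genes that the array annotation pairs with a probe set and 2 of the 102 that carry a name other than a locus number. The annotation lists them as LOC543388 (TaALMT1) and LOC543074 (TaTPC1), they were found by name among the synonyms of these identifiers, and each has 1 probe set. The genes were chosen from signals on these same arrays, among the named genes with unequal or shared responses to osmotic stress, so their values are a description and were not tested. Neither probe set has a companion from the same sequence cluster, and no other probe set is annotated to either gene. As 59906 probe sets have no gene entry, another probe set for either transcript could not be looked for by name.

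Roots of seedlings were profiled on 1-colour arrays with biotin-labelled total RNA. The 4 groups had 1 array each. Roots of the cultivar Luohan No.2 were taken from plants in tap water or in polyethylene glycol (PEG), and roots of the cultivar Chinese Spring from plants in the same 2 conditions. Seedlings of all groups were raised in Petri dishes at 25 °C with a photoperiod of 14 h and were used at the stage of their second leaf. PEG, a large polymer that holds water back from roots and stands in for drought in such experiments, was given for 6 h and set the osmotic potential to -0.49 MPa. The labels name no transgene or other treatment, and do not say how many seedlings entered a sample. Every fold below between conditions or cultivars compares 1 array with 1 array, and a difference between the cultivars' responses uses all 4 arrays. None carries an error between plants.

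ALMT proteins are anion channels of plant membranes. TaALMT1, the founding member of the family, lies in the plasma membrane of root cells and releases malate from the root tip, where malate binds toxic aluminium in acid soil, and the gene is known for its part in the aluminium tolerance of wheat. TPC1 proteins are calcium-dependent cation channels. In Arabidopsis TPC1 is the slow vacuolar channel of the vacuole membrane, and it takes part in calcium signals that travel through the root under salt stress. Malate and calcium are both stored in the vacuole. Bread wheat is a hexaploid, and homoeologous copies of a gene may share the probes of a probe set.

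The deposited values were MAS5 signals on a linear scale, with each array scaled to a trimmed mean of about 100. Signals were floored at 10.6, the 40th percentile over the 4 arrays, because weak MAS5 values are noisy near 0. A fold with a signal raised to a floor is a bound. The floor of 10.6 changed no signal of TaALMT1 or TaTPC1. TaALMT1 on the Luohan No.2 PEG array was deposited at 10.6, equal to the floor, so its folds there are weak measured values. Of all probe sets, the Chinese Spring water and PEG arrays had 64.3% and 64.9% over the floor, and those of Luohan No.2 had 54.8% and 55.9%. None of the 5 root gene names listed for a check of the tissue was matched in the annotation. Of 8 names of leaf or plastid genes, 6 were matched, with 36 probe sets, 25 of them above the floor on at least 1 array. Their summed signal was 16895.2 in water and 15882.9 in PEG for Chinese Spring, against 5950.2 and 5814.4 for Luohan No.2. Most of that sum came from the large Rubisco subunit gene rbcl. PRK, an enzyme of carbon fixation, had 0.9 and 9.8 in water and PEG for Luohan No.2, below the floor. In Chinese Spring it had 74.4 and 32. The other matched genes were above the floor on at least 1 Luohan No.2 array. Among them, PsbO had 50.3 and 17.6 in water and PEG there, and 138.9 and 74.7 in Chinese Spring. Transcript integrity was read from the array's sucrose synthase control, whose 5' probes gave 0.0216 of the 3' signal on the Luohan No.2 PEG array and between 0.0554 and 0.0805 elsewhere.

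For the malate transporter gene TaALMT1, the Luohan No.2 arrays gave a signal of 22.9 in water and of 10.6 in PEG. In Chinese Spring it was 27.6 in water and 66.8 in PEG. The PEG arrays thus held both its lowest and its highest signal, with the water arrays between them, and the differences were opposite in the cultivars. In Chinese Spring the PEG signal was 2.42 times the water signal, a log2 difference of 1.28. In Luohan No.2 the PEG signal was 2.16-fold lower, a log2 difference of -1.11. That PEG signal equalled the floor, and the difference was the same without a floor. All of its signals were under 100, the level to which the arrays were scaled, and the highest was 6.30 times the floor. In these whole-root samples, fewer cells that carry a transcript and less transcript per cell cannot be told apart.

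TaTPC1 was well above the floor on every array. The Luohan No.2 arrays gave 282.9 in water and 547.4 in PEG. The Chinese Spring arrays gave 391.0 in water and 597.6 in PEG. Both PEG signals of this calcium channel gene were above both water signals. In Chinese Spring the fold was 1.53 (log2 0.61), and in Luohan No.2 it was 1.93 (log2 0.95). The lowest of the 4 signals was 26.7 times the floor, and the highest was 2.11 times the lowest.

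**Figure D1:**
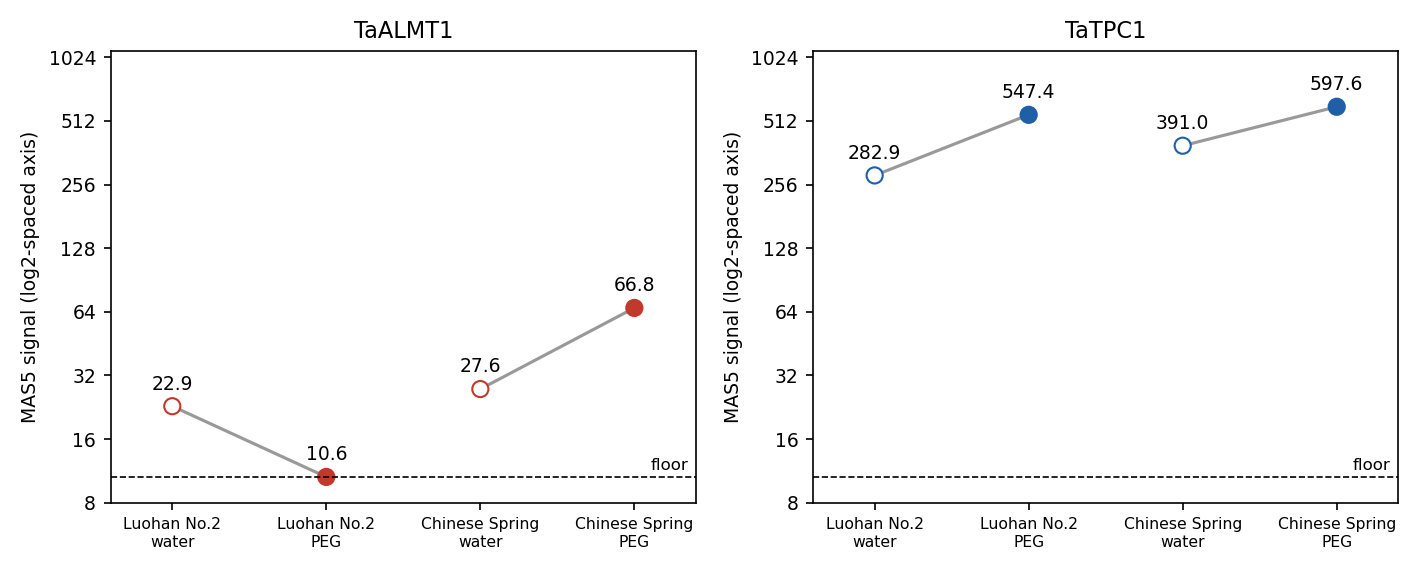
MAS5 signals (vertical axis, log2-spaced) of the TaALMT1 probe set (left) and the TaTPC1 probe set (right) on the 4 arrays, open circles for water and filled circles for PEG, with the floor of 10.6 as a dashed line. There are no error bars because each group had 1 array, and TaALMT1 moves in opposite directions from water to PEG while TaTPC1 is higher in PEG in both cultivars.

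The members can be set against all probe sets measured in the same comparison, with nothing read from this background because these contrasts chose the genes. In Luohan No.2, 10.1% of 38468 measured probe sets were at least 2-fold lower in PEG, and 1 of the 2 genes, TaALMT1, was among them. The share at least 2-fold higher there was 7.65%, with 0 of the 2 genes, TaTPC1 lying just under 2-fold. In Chinese Spring, the share at least 2-fold higher in PEG was 9.89% of 46102, with 1 of the 2 genes, again TaALMT1. The pattern of TaALMT1, lower in PEG in Luohan No.2 but higher in Chinese Spring, each by 2-fold or more, was seen for 0.754% of 35693 probe sets measured in both cultivars. Among 15812 probe sets with a mean signal within 2-fold of its own the share was 1.31%. Neither difference of TaALMT1 reached 2-fold with log2(signal + 16), where the folds were 1.46 in Luohan No.2 and 1.90 in Chinese Spring, and at the 60th-percentile floor the Luohan No.2 difference was not measured. The pattern of TaTPC1, at least 1.5-fold higher in both cultivars, a limit set after its values were seen, was met by 6.47% of the 35693 and by 6.87% of the 5589 with a mean signal within 2-fold of its own.

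**Figure D2:**
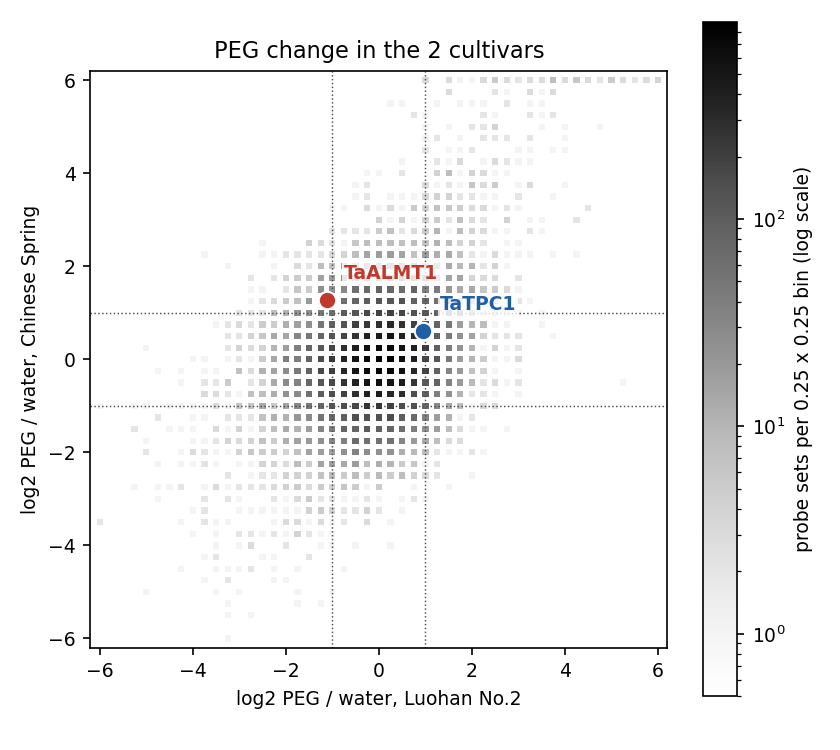
Log2 of PEG over water in Luohan No.2 (horizontal axis) and Chinese Spring (vertical axis), with grey squares for the number of probe sets per bin among the 35693 measured in both cultivars (values beyond 6 on either axis are drawn at 6) and dotted lines at 2-fold. TaALMT1 lies in the upper left, at -1.11 and 1.28, and TaTPC1 in the upper right, at 0.95 and 0.61.

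Without replicate arrays, the range of changes among probe sets of like mean signal gives a scale for these values, though it holds real responses as well as noise. Among probe sets with a mean signal within 2-fold of that of TaALMT1, the 10th and 90th percentiles of the log2 difference between PEG and water were -1.10 and 0.99 for Luohan No.2. For Chinese Spring they were -1.29 and 1.27. The differences of TaALMT1, -1.11 and 1.28, lay at the edges of these ranges. For probe sets with a mean signal within 2-fold of that of TaTPC1 the percentiles were -0.92 and 0.86 for Luohan No.2 and -0.79 and 0.77 for Chinese Spring. The TaTPC1 difference was just outside this range in Luohan No.2 and inside it in Chinese Spring. As a second scale, the SD of log2 PEG differences within sequence clusters was 0.51 in Chinese Spring and 0.58 in Luohan No.2 for probe sets above the floor, as TaALMT1 mostly was. For probe sets above a signal of 100, as TaTPC1 was, it was 0.28 and 0.43. This SD leaves out noise common to an array.

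The difference between the cultivars' responses was 5.23-fold for TaALMT1, more positive in Chinese Spring (log2 2.39). A response difference of at least 4-fold in that direction was found for 3.61% of the 35693 probe sets and for 4.96% of those with a mean signal like that of TaALMT1. With log2(signal + 16) in place of the floor the difference was 1.47. For TaTPC1 the response was 1.27-fold smaller in Chinese Spring than in Luohan No.2 (log2 -0.34), within the 10th to 90th percentile range of -0.99 to 1.03 at its signal level. Of the 4 arrays, the Luohan No.2 PEG array, where TaALMT1 was lowest, also had the lowest sucrose synthase ratio. The same held for the 5' to 3' ratios of the glucose-6-phosphate dehydrogenase control, 0.243 there and between 0.375 and 0.390 elsewhere, and of the ubiquitin control, 1.59 there and between 2.45 and 3.50 elsewhere. The part of this in the TaALMT1 and TaTPC1 signals of that array was not tested.

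Between cultivars in water, TaALMT1 was 1.21-fold and TaTPC1 1.38-fold higher in Chinese Spring. Neither passed 2-fold, which 21.3% of 42716 probe sets did in either direction. The median probe set was itself higher in Chinese Spring, by 0.22 on the log2 scale in water and 0.20 in PEG. Relative to that shift, the log2 differences in water were 0.04 for TaALMT1 (0.27 as measured) and 0.24 for TaTPC1 (0.47 as measured). Those in PEG were 2.46 for TaALMT1 and -0.07 for TaTPC1. With the arrays scaled to equal medians both were lower in Chinese Spring in water, with log2 differences of -0.32 and -0.12, and quantile normalization gave -0.19 for TaALMT1.

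Under PEG, TaALMT1 was 6.30-fold higher in Chinese Spring than in Luohan No.2 (log2 2.66). At least 2-fold higher signals in Chinese Spring were found for 16.3% of 43378 probe sets under PEG, and for 1 of the 2 genes. The log2 difference was 1.64 with log2(signal + 16), 1.26 or higher with the 60th-percentile floor, and 2.12 with arrays scaled to equal medians. TaTPC1 differed by 1.09-fold under PEG (log2 0.13), and by -0.41 with equal medians, which turned its direction. Sequence variants that alter hybridisation enter every comparison between cultivars. The summed leaf and plastid signal also differed between cultivars, and its part in these differences was not tested.

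**Figure D3:**
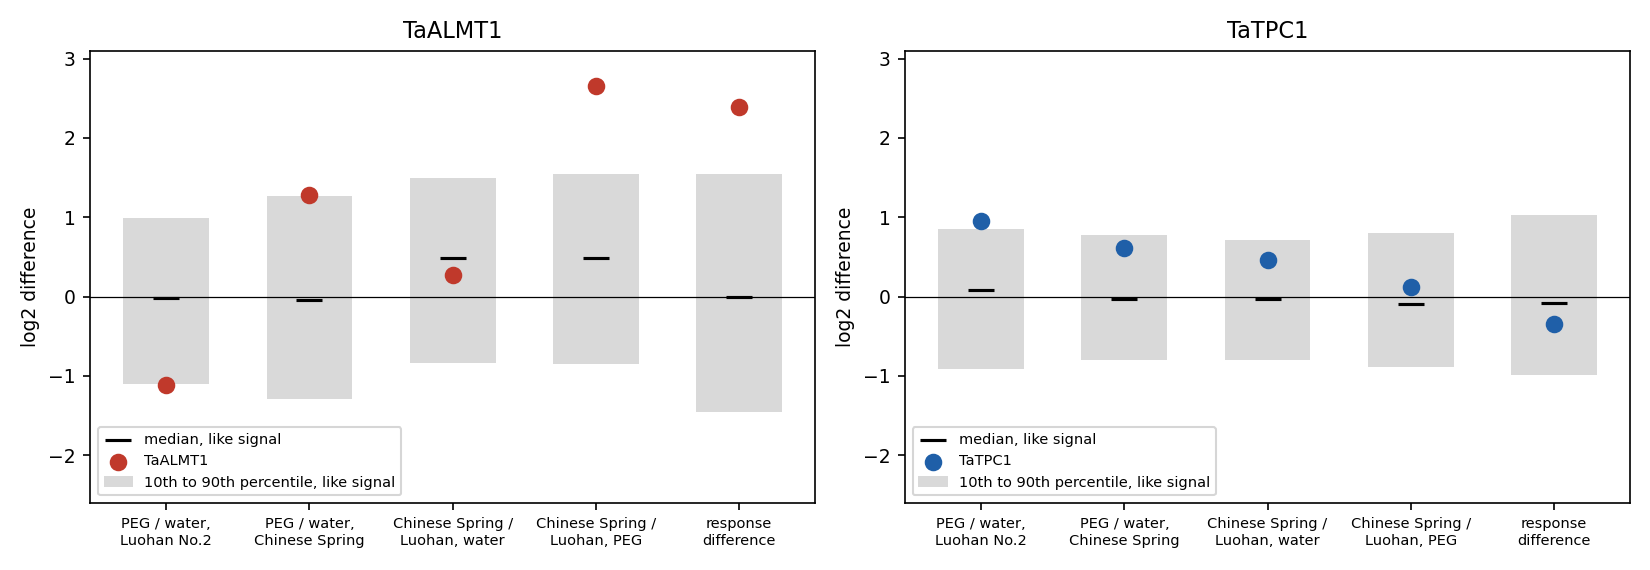
Log2 differences of TaALMT1 (left) and TaTPC1 (right) in 5 comparisons (coloured points), with grey bars from the 10th to the 90th percentile and black marks at the median of probe sets whose mean signal was within 2-fold of the gene's. TaALMT1 stands outside its bar by the most between cultivars under PEG (2.66) and in the response difference (2.39). Both use its Luohan No.2 PEG signal, which equalled the floor. Every TaTPC1 point but that for PEG in Luohan No.2 (0.95) lies within its bar.

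The order of the TaALMT1 signals was Luohan No.2 in PEG, Luohan No.2 in water, Chinese Spring in water and Chinese Spring in PEG. The middle pair were 1.21-fold apart, less than the cluster SD of 0.57 log2 units for that comparison. For TaTPC1 the order was Luohan No.2 in water, Chinese Spring in water, Luohan No.2 in PEG and Chinese Spring in PEG. Its water arrays and its PEG arrays were each within 1.5-fold of each other. With no replicates, none of these neighbours could be shown to differ.

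Among the 91 named genes measured for PEG in Chinese Spring, TaALMT1 was 10th and TaTPC1 22nd from the top. Among the 73 measured in Luohan No.2, TaTPC1 was 9th from the top. TaALMT1, with its PEG signal at the floor, was 4th from the bottom. These ranks use the brightest probe set of each gene, have no error and describe contrasts that chose the genes.

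Other genes of the same pathways were hardly represented by name. Of 16 names listed for organic acid transport and metabolism, such as citrate transporters, malate dehydrogenase and PEP carboxylase, TaALMT1 was the 1 match. Of 17 names for calcium channels, pumps and sensors, TaTPC1 was the 1 match. Of 11 names for vacuole membrane proteins and proton pumps, 1 was matched, ha1, a proton-pumping ATPase, with 3 probe sets. Proton pumps set up the voltage and pH difference that drive ion transport across plant membranes. The brightest ha1 probe set may cross-hybridise, by its name. Its signals were 7068.5 (water) and 4802.1 (PEG) on the Chinese Spring arrays and 5444.4 (water) and 6488.2 (PEG) on those of Luohan No.2. In Chinese Spring this was 1.47-fold lower in PEG, and in Luohan No.2 it was 1.19-fold higher. The other ha1 probe sets had the same signs, with log2 differences of -0.60 and -0.36 in Chinese Spring and of 0.27 and 0.51 in Luohan No.2. None of the 3 reached 2-fold in either cultivar. Of measured probe sets, 10.6% of 46102 were at least 2-fold lower with PEG in Chinese Spring and 7.65% of 38468 at least 2-fold higher in Luohan No.2.

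The named genes closest in pattern were found by the root mean square difference of log2 signals, each centred on its mean over the 4 arrays, among 81 other named genes above the floor on at least 2 arrays. For TaALMT1 they were Prx1 (0.47 log2 units), a gene named ATI (0.51) and EMH2 (0.54), which encodes an Em protein of the late embryogenesis abundant kind. All were weak, with signals of at most 9.2 on the Luohan No.2 arrays, below the floor. The floor thus set their PEG difference in Luohan No.2 to none, and whether they shared the opposite directions of TaALMT1 could not be measured. Their deposited Luohan No.2 signals in water and PEG were 6.9 and 2.9 for Prx1, 9.2 and 2.8 for ATI, and 8.6 and 0.6 for EMH2. These were lower in PEG, but such weak values are noisy. Their likeness rests on the Chinese Spring arrays. Prx1 had 15.8 in water and 29.0 in PEG there, and ATI had 24.0 and 31.1, a 1.30-fold difference. EMH2 had 11.1 and 27.0, a 2.43-fold difference close in size to that of TaALMT1.

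For TaTPC1 the closest were lgul (0.18), a glyoxalase that removes methylglyoxal, the beta-tubulin gene Tubb5 (0.24) and the catalase CAT1 (0.27). Tubb5 was the 1 of them with signals over 100, at 399.0 and 632.6 on the water and PEG arrays of Luohan No.2 and 685.3 and 699.7 on those of Chinese Spring. Its PEG difference was 1.02-fold in Chinese Spring and 1.59-fold in Luohan No.2. Signals of lgul were at most 16.2 and those of CAT1 at most 23.2, near the floor. The lowest, 9.3 for lgul in Luohan No.2 water and 2.9 for CAT1 in Chinese Spring water, were raised to the floor. The likeness of these genes to TaTPC1 thus rests partly on floored values. TaALMT1 and TaTPC1 were 0.96 log2 units apart by this measure, so TaTPC1 came 46th in likeness to TaALMT1.

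**Figure D4:**
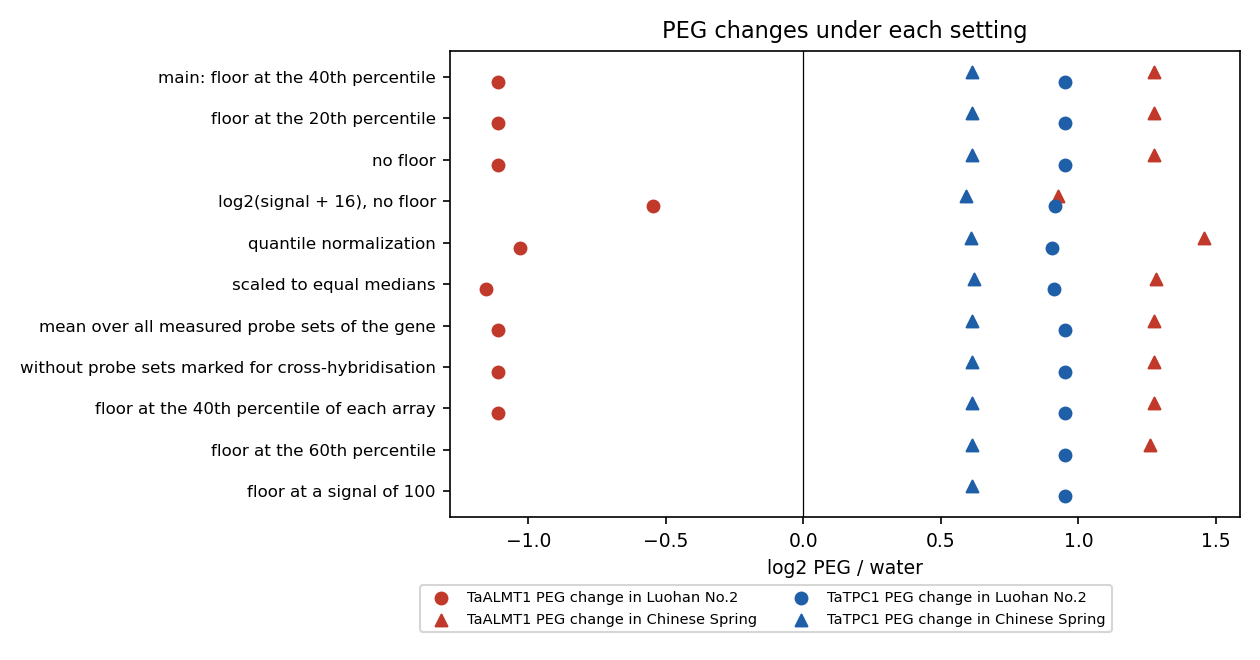
Log2 of PEG over water (horizontal axis) for TaALMT1 (red) and TaTPC1 (blue) in Luohan No.2 (circles) and Chinese Spring (triangles) under the main and 10 alternative settings (vertical axis). A missing point means that both signals lay at or under the floor, and TaALMT1 in Luohan No.2 ranges from -1.15 to -0.55 while TaTPC1 stays between 0.59 and 0.95.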

How the data were processed

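Root RNA of 2 cultivars in water or PEG was measured on 4 arrays, grouped by the sample titles. The deposited intensities, 1 per probe set, came from MAS5, per the submitters' processing notes. Its version and settings were not given in the sources used here. Trimmed by 2%, the mean was 100.02 on each array, so the scaling was kept. MAS5 subtracts mismatch signal, which makes weak values noisy. The number of arrays limits the precision.

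From 61290 probe sets, 111 controls were set aside. Signals were floored at their 40th percentile (10.6) and log2 differences taken in Python 3.11.15 with numpy 2.4.6 and pandas 2.3.3. A probe set counted as measured when an array of the comparison lay over the floor. Genes were named by identifier through the platform annotation and RefSeq (IWGSC CS RefSeq v2.1), where 770 of 771 genes were found. The annotation gives 1 gene for 1273 probe sets, several for 0 and none for 59906. Probe sets before the second dot of their names share a sequence cluster.

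No test was run, since there was 1 array a group and the members were chosen with earlier results known, as were the gene lists, the pattern rule (the 3 nearest named genes) and the alternatives. The calculations were tested on simulated data, with known folds put only on probe sets brighter than TaALMT1. Recovery of folds at its weak signals was not tested. Other floors, a pseudocount of 16, other scalings and other choices of probe sets were tried.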

Additional observations from a re-analysis of the deposited data

Results flagged for a closer look

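The response of TaALMT1 to PEG had opposite signs in the cultivars. In Chinese Spring the PEG signal was 2.42-fold higher than in water, and in Luohan No.2 it was 2.16-fold lower. The log2 difference between the responses was 2.39. With 1 array for each cultivar and condition this difference was not tested. All 4 signals, from 10.6 to 66.8, were weak, and the Luohan No.2 PEG value lay at the floor. TaTPC1 had the same sign in both cultivars.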

How the results depend on the processing

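Of 92 values of the 2 genes under 10 alternative settings (8 planned and 2, a floor of 100 and a floor per array, chosen after seeing the data), 86 moved by less than the cluster SD of that comparison, taken above the floor for TaALMT1 and above a signal of 100 for TaTPC1. With equal medians, the cultivar differences in water became -0.32 for TaALMT1 and -0.12 for TaTPC1 on the log2 scale, and that of TaTPC1 in PEG became -0.41. The TaALMT1 cultivar difference under PEG was 1.64 with log2(signal + 16) and 1.26 or higher with the 60th-percentile floor, and its response difference was 1.47 with the former. The PEG differences of both genes kept their signs wherever measured: TaALMT1 ranged from -1.15 to -0.55 in Luohan No.2 and from 0.93 to 1.46 in Chinese Spring, and TaTPC1 from 0.90 to 0.95 and from 0.59 to 0.62. TaALMT1 had no value with the floor at 100, nor, for Luohan No.2 PEG, the response difference and the cultivars in water, at the 60th percentile. Each gene has 1 probe set, so settings on the choice of probe sets leave its values as they are by construction. No TaALMT1 signal lay under the lower-percentile floor or the floors per array. These settings, like that without a floor, could not move its values. For TaTPC1 the same held, and also for the 60th-percentile floor and the floor of 100. Most of the 86 thus equal the main value by construction, so their number does not show robustness. The 86 include the TaALMT1 PEG difference in Luohan No.2 with log2(signal + 16), -0.55 against -1.11 in the main setting. The number of probe sets at least 2-fold lower in PEG in Luohan No.2 was 3869 and ranged from 1099 (floor of 100) to 12456 (no floor). For those at least 2-fold higher it was 2944 (822 to 12749), and in Chinese Spring 4560 (948 to 12529). Between cultivars, those at least 2-fold higher in Chinese Spring numbered 6477 in water (639 to 18462) and 7062 in PEG (990 to 18363), with 2554 and 3201 at equal medians and 3618 and 4431 after quantile normalization. Those lower in Chinese Spring in water numbered 2630, and 7548 at equal medians. No paired analysis was possible because each group had 1 array and no test was run. Weak signals limit TaALMT1, whose Luohan No.2 PEG value was no higher than the floor.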
